A study of Mus musculus with 11 samples.

Results

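Meox2 and 9 other transcription factors of the vessel wall (Meox1, Tcf15, Sox7, Sox17, Sox18, Klf2, Klf4, Erg and Gata2) were followed in hearts of WT and CD mice, to see whether Meox2 moved more than the other endothelial factors. They were taken from the 22608 genes of the count table by matching gene identifiers to GENCODE symbols, and each of the 10 matched 1 row. Meox2 was chosen by its difference between CD VEH and WT VEH, which was among the largest of all genes, so its value in that comparison, and in those that share mice with it, is given as a description and without a test. CD JZL184 against WT JZL184 shares no mouse with CD VEH against WT VEH and is the only comparison tested here. The reversal of the CD VEH difference in CD JZL184 mice also drew attention to Meox2. The test of Meox2 is therefore not independent of its choice.

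RNA-seq was performed on the heart, labelled as ventricle, of 11 male mice of 8 to 16 weeks on the C57BL/6J background. CD mice (strain WBS-CD in the labels) carry the complete deletion, on 1 chromosome copy, of the mouse interval that corresponds to the Williams–Beuren syndrome region, and WT littermates served as controls. WT VEH (n = 2) and CD VEH (n = 3) mice were injected with vehicle (dimethyl sulfoxide, polyethylene glycol, Tween-80 and saline), and WT JZL184 (n = 3) and CD JZL184 (n = 3) mice with JZL184 at 8 mg/kg in the same vehicle, in both cases daily for 10 days. JZL184 blocks monoacylglycerol lipase, the enzyme that breaks down the endocannabinoid 2-arachidonoylglycerol. Single mice are named by their group and the letter of their column. The libraries held 69660329 to 92251550 estimated counts, each of the 10 genes had between 335 and 4120 counts in every mouse, and all 10 passed the filter on low values (average log2 CPM of at least 1), as did 11319 genes in all. Of the 14 genes listed for the deleted interval, 13 passed the filter and all 13 were lower in CD than in WT mice in both treatment arms, with a summed level of 212.7 to 239.2 CPM in CD hearts and 409.6 to 457.7 CPM in WT hearts.

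Meox2 is a homeobox factor that restrains proliferation of endothelial and smooth muscle cells. In heart capillaries it pairs with the basic helix-loop-helix factor Tcf15, and the pair turns on genes for uptake of fatty acids into the heart muscle. Meox1 is its closest relative and is also made by mesenchymal cells. The SOXF factors Sox7, Sox17 and Sox18 act in arterial and lymphatic specification, the Krüppel-like factors Klf2 and Klf4 respond to blood flow, and Erg (an ETS factor) and Gata2 (a zinc finger factor) maintain endothelial identity. Klf4, Meox1 and Gata2 are made by other cells of the heart too, so the 10 genes are not markers of 1 cell type.

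The RefSeq promoter windows of GRCm38.p6, which run from 250 bases before to 50 bases after a transcription start, held 8 windows for 5 of the 10 genes (Meox2, Klf2, Klf4, Erg and Gata2). They were searched on both strands for the MEF2 consensus, which allows alternative bases, and for shorter motifs. The letters CCGGAA were taken for the ETS core. GATA sites were taken as AGATAA and sites of SOX factors as ACAATG. For Krüppel-like factors the search used CCGCCC, and for a TATA box it used TATAA. The MEF2 consensus was in 3 of the 8 windows and in 3.19% of 32841 windows of the same length over all genes. These 3 windows, those of Meox2, Klf2 and 1 of 3 starts of Erg, are shown 5′ to 3′ on the strand of the gene, with the MEF2 match in capitals.
Meox2, chr12:37108290-37108589, plus strand: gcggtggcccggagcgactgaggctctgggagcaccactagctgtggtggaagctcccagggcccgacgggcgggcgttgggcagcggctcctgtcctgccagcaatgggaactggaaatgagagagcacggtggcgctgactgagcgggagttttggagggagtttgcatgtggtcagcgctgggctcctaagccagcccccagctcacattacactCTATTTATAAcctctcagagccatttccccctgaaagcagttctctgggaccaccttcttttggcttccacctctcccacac
Klf2, chr8:72318812-72319111, plus strand: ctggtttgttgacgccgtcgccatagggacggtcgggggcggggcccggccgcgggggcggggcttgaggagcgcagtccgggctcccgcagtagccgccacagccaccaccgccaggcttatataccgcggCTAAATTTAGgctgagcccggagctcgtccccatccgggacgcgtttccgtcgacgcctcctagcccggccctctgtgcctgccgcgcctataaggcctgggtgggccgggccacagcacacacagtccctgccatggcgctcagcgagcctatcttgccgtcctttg
Erg, chr16:95530316-95530615, minus strand: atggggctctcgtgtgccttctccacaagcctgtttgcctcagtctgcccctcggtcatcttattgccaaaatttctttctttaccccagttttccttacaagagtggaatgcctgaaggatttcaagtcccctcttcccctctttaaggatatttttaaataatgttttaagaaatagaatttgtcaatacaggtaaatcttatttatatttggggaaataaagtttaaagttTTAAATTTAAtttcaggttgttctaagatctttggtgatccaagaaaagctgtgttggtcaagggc
The match in Meox2 began 32 bases before the start and overlapped the letters TATAA, that in Klf2 began 118 bases before it and that in Erg 16 bases before it. The KLF letters were in the windows of Meox2 (1 place), Klf2 (2 places), Klf4 (4 places), 1 of 3 of Erg and both of Gata2, against 35.7% of all windows. GATA letters and SOX letters were each in 1 window, another start of Erg, against 11.2% and 12.6% of all windows, and ETS letters were in none of the 8 against 14.9%. The letters TATAA were in the windows of Meox2, Klf2, Klf4 and, on the opposite strand only, 1 of 3 of Erg, against 24.9% of all windows on either strand. The motifs were chosen with these sequences in view, and the matches are a description of letters, not of bound sites.

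Meox2 (ENSMUSG00000036144.6, GRCm38 chr12:37108540-37179534, plus strand) was higher in both WT JZL184 and CD VEH hearts than in WT VEH hearts, and CD JZL184 hearts lay between. It stood at 8.25 and 8.81 CPM in WT VEH C and D. The WT JZL184 mice A, B and D had 17.2, 16.6 and 19.0 CPM, and the CD VEH mice A, C and E had 18.9, 15.4 and 19.0 CPM. CD JZL184 A, C and E had 11.8, 11.7 and 11.5 CPM. The WT VEH and CD JZL184 groups overlapped with no other group, while WT JZL184 and CD VEH overlapped with each other. The CD VEH mean was 2.08-fold that of WT VEH (log2 fold-change 1.06, SE 0.10) and the WT JZL184 mean 2.06-fold (log2 fold-change 1.05, SE 0.10). CD JZL184 was 0.656-fold CD VEH (log2 fold-change -0.61, SE 0.09) and 1.37-fold WT VEH (log2 fold-change 0.45, SE 0.10). In the tested comparison CD JZL184 was lower than WT JZL184, at 0.662-fold (log2 fold-change -0.59 ± 0.09 SE, edgeR BH-adjusted p = 0.000949, BH for Benjamini–Hochberg). The adjusted p lay between 2.45e-08 and 0.0278 over the 15 other settings. In heart tissue, fewer cells of a type and less RNA per cell cannot be told apart for any of these genes.

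**Figure D1:**
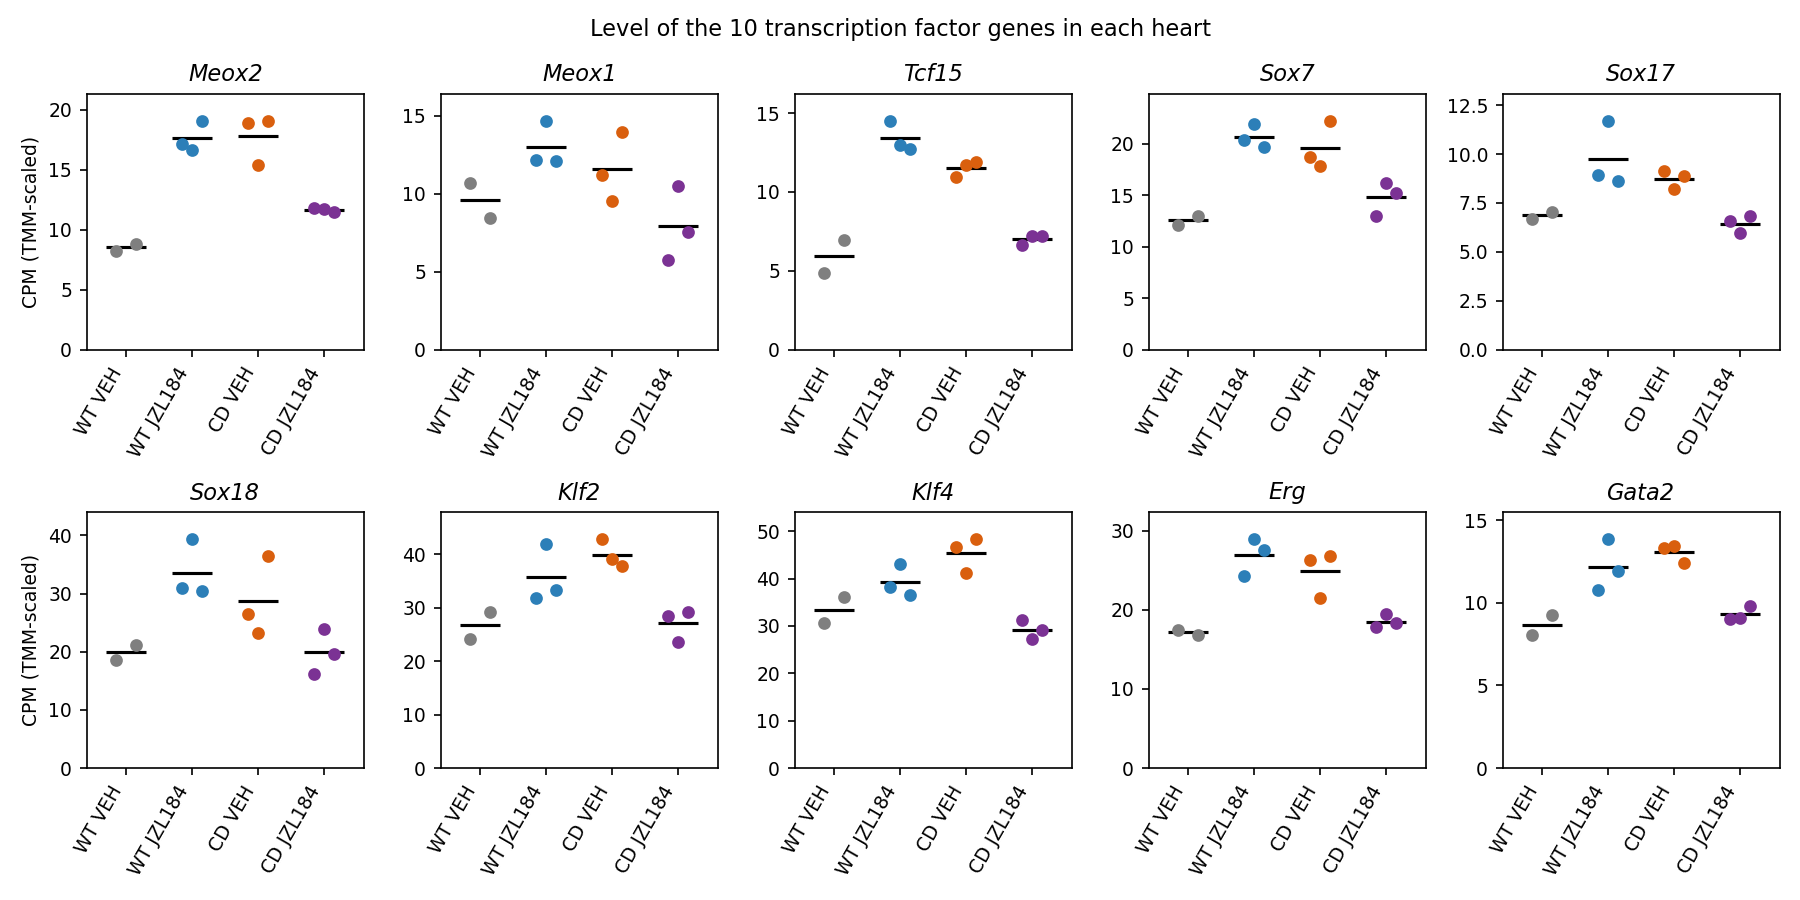
Level in CPM (y axis, from 0, scaled separately for each gene) of the 10 genes in every heart, by group (x axis); points are mice and bars are group means. Meox2 lies at 8.25 to 8.81 CPM in WT VEH, at 15.4 to 19.0 CPM in WT JZL184 and CD VEH, and at 11.5 to 11.8 CPM in CD JZL184.

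Tcf15, the partner of Meox2, had its lowest mean in WT VEH and its next lowest in CD JZL184, as Meox2 did. It had 4.84 and 6.97 CPM in WT VEH C and D, 14.5, 13.0 and 12.7 CPM in WT JZL184 A, B and D, 10.9, 11.7 and 11.9 CPM in CD VEH A, C and E, and 6.62, 7.19 and 7.21 CPM in CD JZL184 A, C and E. CD JZL184 overlapped with WT VEH, and both lay below every WT JZL184 and CD VEH mouse. The log2 fold-change against WT VEH was 0.96 (SE 0.13) in CD VEH and 1.18 (SE 0.13) in WT JZL184, but the WT VEH pair was wide for this gene, and these values became 0.72 and 0.94 without WT VEH C and 1.25 and 1.47 without WT VEH D. CD JZL184 was lower than WT JZL184 (log2 fold-change -0.93 ± 0.11 SE, edgeR BH-adjusted p = 0.000375), which was the largest change among the 10 genes in this comparison.

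Meox1, the relative of Meox2, did not show the spread between groups that Meox2 did. It had 10.7 and 8.46 CPM in WT VEH C and D, 12.2, 14.7 and 12.1 CPM in WT JZL184 A, B and D, 11.2, 9.55 and 13.9 CPM in CD VEH A, C and E, and 5.75, 10.5 and 7.56 CPM in CD JZL184 A, C and E. CD VEH overlapped with every other group, and its log2 fold-change against WT VEH was 0.27 (SE 0.22), against 1.06 for Meox2. Single mice moved this value for Meox1, to 0.45 without WT VEH C and to 0.11 without WT VEH D or without CD VEH E. The SD within groups was 0.30 on the log2 scale for Meox1, the widest of the 10 genes, and 0.11 for Meox2, the narrowest. CD JZL184 was lower than WT JZL184 (log2 fold-change -0.71 ± 0.20 SE, edgeR BH-adjusted p = 0.0152), a call that was lost without CD JZL184 A or without CD JZL184 E (edgeR BH-adjusted p = 0.0526 in both).

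The 3 SOXF genes were higher in every WT JZL184 and CD VEH mouse than in both WT VEH mice. Sox7 had 12.1 and 13.0 CPM in WT VEH C and D, 20.4, 22.0 and 19.6 CPM in WT JZL184 A, B and D, 18.7, 17.8 and 22.2 CPM in CD VEH A, C and E, and 13.0, 16.2 and 15.2 CPM in CD JZL184 A, C and E. Sox18, the most abundant of the 3 per length, had 18.6 and 21.2 CPM in WT VEH, 31.0, 39.3 and 30.5 CPM in WT JZL184, 26.5, 23.3 and 36.5 CPM in CD VEH, and 16.2, 23.8 and 19.7 CPM in CD JZL184, with mice in the same order. For Sox18 CD JZL184 C lay above CD VEH C, so CD VEH and CD JZL184 overlapped, which they did not for Sox7 or Sox17. Sox17 had 6.69 and 7.06 CPM in WT VEH, 8.93, 11.7 and 8.63 CPM in WT JZL184, 9.14, 8.20 and 8.86 CPM in CD VEH, and 6.58, 5.94 and 6.82 CPM in CD JZL184. In the tested comparison all 3 were lower in CD JZL184 than in WT JZL184, with log2 fold-changes of -0.48 for Sox7 (± 0.10 SE, edgeR BH-adjusted p = 0.00342), -0.60 for Sox17 (± 0.11 SE, edgeR BH-adjusted p = 0.00235) and -0.75 for Sox18 (± 0.17 SE, edgeR BH-adjusted p = 0.00624).

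Klf2 and Klf4, the flow-responsive factors, had their lower means in WT VEH and CD JZL184. Klf2 had 24.1 and 29.2 CPM in WT VEH C and D, 31.8, 42.0 and 33.3 CPM in WT JZL184 A, B and D, 42.8, 39.1 and 37.9 CPM in CD VEH A, C and E, and 28.5, 23.6 and 29.2 CPM in CD JZL184 A, C and E. Klf4 had 30.7 and 36.2 CPM in WT VEH, 38.2, 43.1 and 36.5 CPM in WT JZL184, 46.7, 41.1 and 48.3 CPM in CD VEH, and 31.3, 27.3 and 29.1 CPM in CD JZL184. For both genes the mean was highest in CD VEH, as it was for Meox2 and Gata2. Meox1, Tcf15, the SOXF genes and Erg had their highest mean in WT JZL184. CD VEH and WT JZL184 overlapped for Klf2, Klf4, Meox2 and Gata2. CD JZL184 was lower than WT JZL184 for Klf4 (log2 fold-change -0.42 ± 0.09 SE, edgeR BH-adjusted p = 0.00424) and for Klf2 (log2 fold-change -0.40 ± 0.12 SE, edgeR BH-adjusted p = 0.0193). The call for Klf2 was lost without WT JZL184 B (edgeR BH-adjusted p = 0.0786, log2 fold-change -0.26), without CD JZL184 C (edgeR BH-adjusted p = 0.0729) and without a scaling factor (edgeR BH-adjusted p = 0.102).

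Erg had 17.5 and 16.8 CPM in WT VEH C and D, 24.2, 28.9 and 27.5 CPM in WT JZL184 A, B and D, 26.3, 21.5 and 26.8 CPM in CD VEH A, C and E, and 17.8, 19.4 and 18.3 CPM in CD JZL184 A, C and E. Gata2 had 8.05 and 9.28 CPM in WT VEH, 10.8, 13.8 and 11.9 CPM in WT JZL184, 13.3, 13.4 and 12.4 CPM in CD VEH, and 9.01, 9.08 and 9.80 CPM in CD JZL184. Both genes separated WT JZL184 and CD VEH from the 2 lower groups without overlap. CD JZL184 was lower than WT JZL184 for Erg (log2 fold-change -0.54 ± 0.09 SE, edgeR BH-adjusted p = 0.00161) and for Gata2 (log2 fold-change -0.39 ± 0.09 SE, edgeR BH-adjusted p = 0.00714), and the call for Gata2 was lost without a scaling factor (edgeR BH-adjusted p = 0.0734).

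In the tested comparison all 10 genes were thus called lower in CD JZL184 than in WT JZL184, and none overlapped between these groups. The genes and the comparison were chosen with earlier results of these data known, so this count is not independent of the choice. The background was high, since 20.1% of the 11319 tested genes were called lower and 24.3% were lower without overlap. The median log2 fold-change was -0.57 over the 10 genes and 0.00 over all tested genes. Without a scaling factor the median of all genes moved from 0.00 to 0.14, the lower calls went from 2275 of 4331 to 1045 of 5169, and 8 of the 10 genes were still called lower. As a description with no test, CD VEH lay above WT VEH without overlap for 9 of the 10 genes (32.5% of all tested genes), CD JZL184 lay below CD VEH for 8 (27.4%) and WT JZL184 lay above WT VEH for 10 (27.4%). The last 2 comparisons share mice with the first. CD JZL184 lay above WT VEH without overlap for Meox2 and Erg, 2 of the 10 genes (17.8% of all tested genes did), and the log2 fold-changes of the other 8 lay between -0.27 and 0.24. Over the other settings Meox1, the lowest of these, lay between -0.52 and -0.08, and Tcf15, the highest, between 0.01 and 0.53.

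**Figure D2:**
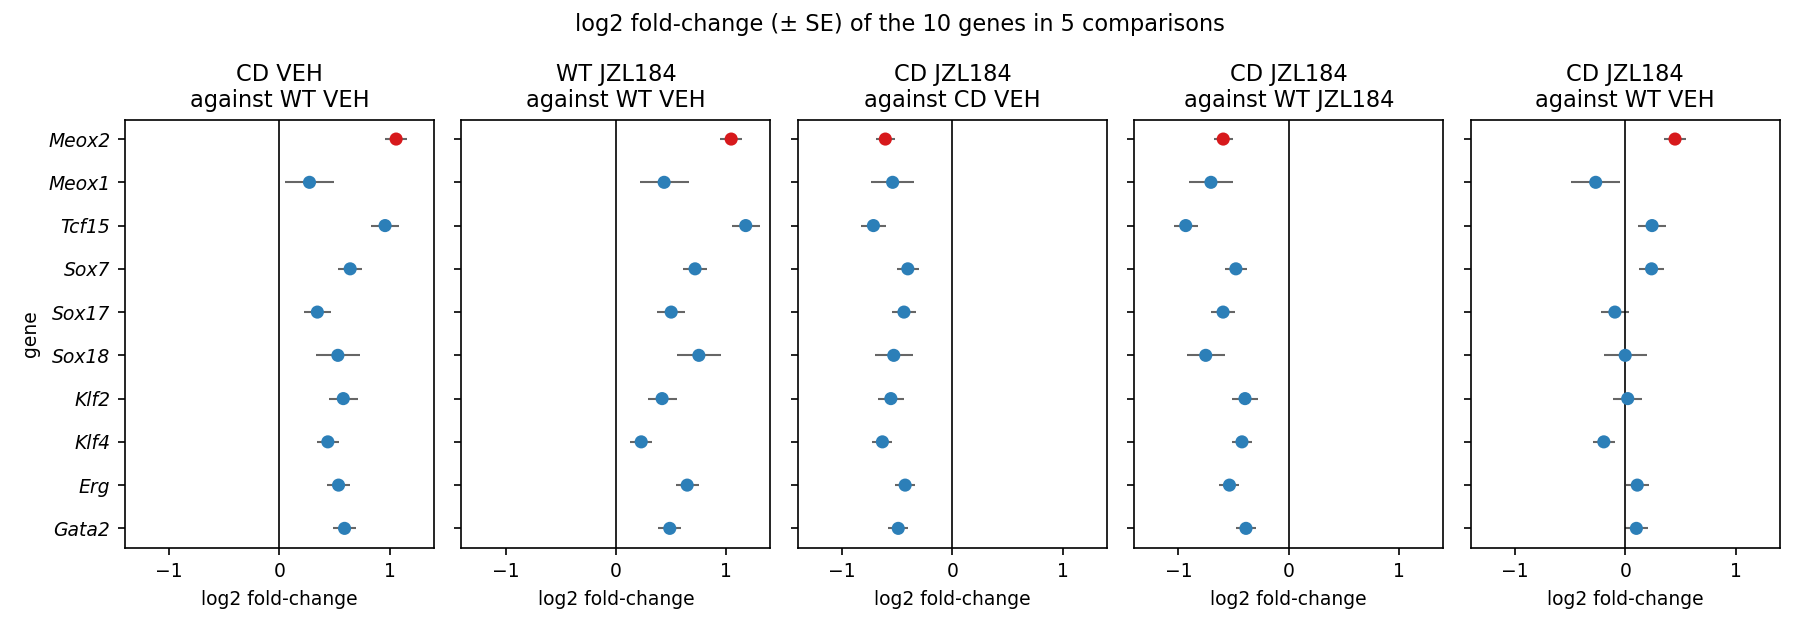
log2 fold-change (x axis, points) with its SE (bars) of each gene (y axis) in 5 comparisons, Meox2 in red; comparisons that share a group are not independent. With WT VEH as the reference, Meox2 is at 1.06 for CD VEH and at 1.05 for WT JZL184. Between CD JZL184 and WT JZL184 it is at -0.59, within the range of the other genes (-0.93 to -0.39).

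Whether Meox2 moved more than the other factors depended on the comparison. By size of the log2 fold-change it ranked 1 of the 10 for CD VEH against WT VEH, which chose it, and 2, after Tcf15, for WT JZL184 against WT VEH. With CD VEH as the reference for CD JZL184 it ranked 3, after Tcf15 (-0.72, SE 0.11) and Klf4 (-0.63, SE 0.09), and between the JZL184 groups it ranked 5. With WT VEH as the reference for CD JZL184 it ranked 1. Against the medians of the other 9 genes, Meox2 was at 1.06 beside 0.54, at 1.05 beside 0.50, at -0.61 beside -0.53, at -0.59 beside -0.54 and at 0.45 beside 0.02 in these comparisons, in the same order. Of all tested genes, 99.8% had a lower log2 fold-change than Meox2 in each of the comparisons with WT VEH as the reference and CD VEH or WT JZL184 as the other group.

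The level of Meox2 relative to the other factors was then taken within each mouse, as its log2 CPM minus the median log2 CPM of the other 9 genes. This difference was -0.55 and -0.56 in WT VEH C and D, -0.25, -0.40 and -0.04 in WT JZL184 A, B and D, 0.01, -0.21 and -0.22 in CD VEH A, C and E, and -0.14, -0.46 and -0.41 in CD JZL184 A, C and E. Both WT VEH mice lay below the 9 other mice, whose groups overlapped. CD JZL184 minus WT JZL184 was -0.11, which was not distinguishable from the spread between mice (exact permutation test, two-sided, p = 0.5, 3 against 3, smallest possible p = 0.1). Only these 2 relative values, against the other factors and against endothelial markers, were tested, and at this number of mice neither could pass 0.05.

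The same was done against the mean log2 CPM of 15 endothelial markers (such as Pecam1, Cdh5 and Kdr, which encode proteins of the endothelial surface). Meox2 minus the markers was -2.68 and -2.60 in WT VEH C and D, -2.17, -2.39 and -2.12 in WT JZL184 A, B and D, -1.99, -2.19 and -1.98 in CD VEH A, C and E, and -2.09, -2.30 and -2.23 in CD JZL184 A, C and E. WT VEH was again below all other mice. The difference between CD JZL184 and WT JZL184 was 0.02 (exact permutation test, two-sided, p = 0.9, smallest possible p = 0.1), and its sign changed under other settings. As a description, Meox2 relative to the markers was 0.58 higher in CD VEH than in WT VEH and 0.41 higher in WT JZL184, and the same differences for Tcf15 were 0.51 and 0.57. Those of Tcf15 rested on the wide WT VEH pair, and became 0.26 and 0.31 without WT VEH C and 0.77 and 0.82 without WT VEH D, whereas those of Meox2 were 0.54 and 0.37 without WT VEH C and 0.62 and 0.45 without WT VEH D. The other 8 genes lay between -0.20 and 0.17 in the first comparison and between -0.40 and 0.11 in the second, with all mice. With 1 mouse left out, the limits in the first reached -0.38 (Meox1) and 0.25 (Klf2), both without WT VEH D. Those in the second reached -0.51 (Klf4, without WT VEH C) and 0.20 (Sox18, without WT VEH D). CD JZL184 minus WT VEH was 0.43 for Meox2, and 0.37 to 0.48 when 1 mouse was left out.

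**Figure D3:**
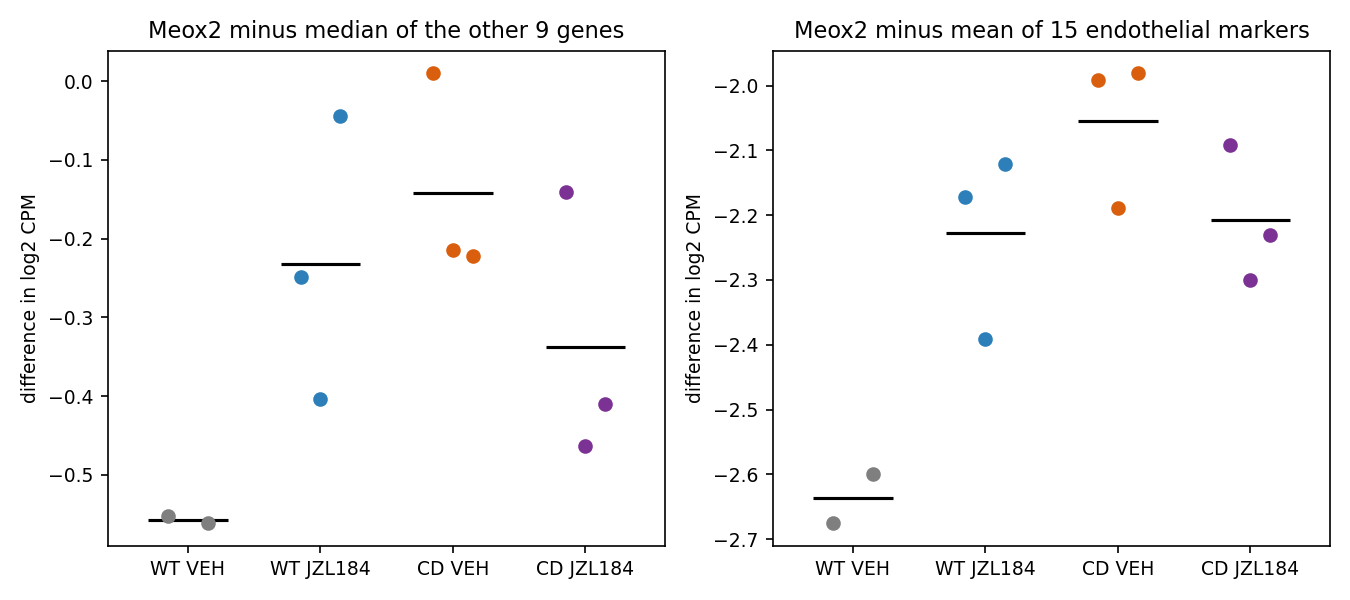
Log2 CPM of Meox2 minus the median of the other 9 genes (left) or minus the mean of 15 endothelial markers (right), y axis, in each mouse by group (x axis); points are mice, bars are means, and neither y axis starts at 0. Both WT VEH mice lie lowest in both plots, and CD JZL184 overlaps with WT JZL184.

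Per length (CPM per kb of merged exons) the order of the means in WT VEH hearts was Klf2, Sox18, Klf4, Tcf15, Erg, Meox1, Sox7, Meox2, Gata2 and Sox17. Klf2 had 14.5 ± 1.95 and Meox2 3.61 ± 0.166 CPM per kb (mean ± SD, n = 2), and Sox17 had 1.44 ± 0.0548 CPM per kb. Neighbours whose mice overlapped were Klf2 and Sox18, Sox18 and Klf4, Tcf15 and Erg, Meox1 and Sox7, and Sox7 and Meox2. In CD VEH hearts Meox2 ranked 5, at 7.53 ± 0.874 CPM per kb (SD, n = 3), and overlapped with Erg below it but not with Tcf15 above it. It ranked 6 in both JZL184 groups, at 7.46 ± 0.545 CPM per kb in WT JZL184 and 4.94 ± 0.0732 CPM per kb in CD JZL184 (SD, n = 3). Gata2 and Sox17 ranked 9 and 10 in all 4 groups.

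The genes of fatty acid uptake, which the Meox2 and Tcf15 pair is known to turn on in heart capillaries, were listed as Cd36, Lpl, Gpihbp1, Fabp4 and Fabp5. In CD JZL184 against WT JZL184, 3 of the 5 were called lower, 1 higher and 1 did not pass. The fatty acid binding proteins Fabp4 (log2 fold-change -0.83 ± 0.12 SE, edgeR BH-adjusted p = 0.00102) and Fabp5 (-0.54 ± 0.16 SE, edgeR BH-adjusted p = 0.0223) and the capillary anchor of lipoprotein lipase Gpihbp1 (-0.71 ± 0.12 SE, edgeR BH-adjusted p = 0.00177) fell. Gpihbp1 had 71.2, 104.1 and 70.2 CPM in WT JZL184 and 51.2, 51.9 and 47.3 CPM in CD JZL184. Lpl, lipoprotein lipase itself, which heart muscle cells make, went the other way, with 3394, 2773 and 3114 CPM in WT JZL184 and 3848, 3879 and 3928 CPM in the CD JZL184 mice (a log2 fold-change of 0.33 ± 0.09 SE, edgeR BH-adjusted p = 0.0135). Cd36, the fatty acid carrier of the cell membrane, did not pass at -0.19 (± 0.08 SE, edgeR BH-adjusted p = 0.0682), and its groups did not overlap. The median of the 5 genes was -0.54.

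Other endothelial transcription factors were listed as 21 genes, of which 18 passed the filter. In the tested comparison 11 of the 18 were called lower, none was called higher and the median log2 fold-change was -0.40, against -0.57 for the 10 genes described above. The largest falls were those of the homeobox factor Hhex (-0.72 ± 0.15 SE, edgeR BH-adjusted p = 0.0034), the Notch target Hey1 (-0.68 ± 0.09 SE, edgeR BH-adjusted p = 0.000766), the lipid-sensing receptor Pparg (-0.66 ± 0.10 SE, edgeR BH-adjusted p = 0.0011) and the partner of Gata2 Tal1 (-0.57 ± 0.10 SE, edgeR BH-adjusted p = 0.00224). Hhex was at 1.62 and 1.68 CPM in WT VEH and at 2.65, 4.01 and 3.42 CPM in WT JZL184, a log2 fold-change of 1.02 (SE 0.17) beside 1.05 for Meox2. Foxo1 and Nfatc1 differed by -0.06 (SE 0.07) and -0.09 (SE 0.06) and did not pass.

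Vascular genes linked to Klf2 and Klf4 were called lower in CD JZL184 than in WT JZL184 in 7 of 8 cases (median log2 fold-change -0.49). They include genes that Klf2 is known to raise, such as Thbd (thrombomodulin, -0.52 ± 0.11 SE, edgeR BH-adjusted p = 0.00425) and the sphingosine 1-phosphate receptor S1pr1 (-0.50 ± 0.13 SE, edgeR BH-adjusted p = 0.012), and genes that it is known to lower, such as the adhesion molecule Vcam1 (-0.73 ± 0.17 SE, edgeR BH-adjusted p = 0.00644). The gap junction gene Gja4 was at -0.68 (± 0.18 SE, edgeR BH-adjusted p = 0.0121). Genes linked to the SOXF factors, Erg and Gata2 were called lower in 14 of 15 cases (median -0.61), led by the sialomucin Emcn (-1.04 ± 0.11 SE, edgeR BH-adjusted p = 0.000206), the adhesion molecule Icam2 (-0.75 ± 0.13 SE, edgeR BH-adjusted p = 0.00173), Egfl7 (-0.71 ± 0.09 SE, edgeR BH-adjusted p = 0.000418) and Eng, a TGF-beta co-receptor (-0.68 ± 0.11 SE, edgeR BH-adjusted p = 0.00116). Of these 15 genes, 10 are also in the list of endothelial markers.

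Markers of several cell types moved with the 10 factors. All 15 endothelial markers were called lower in CD JZL184 than in WT JZL184 (median log2 fold-change -0.56, against -0.57 for the 10 factors), and their summed level was 1042 to 1051 CPM in WT VEH, 1515 to 1640 CPM in WT JZL184, 1318 to 1419 CPM in CD VEH and 1009 to 1127 CPM in CD JZL184. In the same comparison 8 of 10 mural cell markers (median -0.52), 5 of 7 fibroblast markers (median -0.54) and 5 of 6 macrophage markers (median -0.83) were called lower. The summed macrophage markers lay at 106.4 to 112.7 CPM in WT VEH, 137.4 to 230.5 CPM in WT JZL184, 148.1 to 186.2 CPM in CD VEH and 96.7 to 114.0 CPM in CD JZL184. Of 7 cardiomyocyte markers none was called lower and 3 were called higher (18.2% of all tested genes were), the calcium release channel gene Ryr2 (0.93 ± 0.16 SE, edgeR BH-adjusted p = 0.00175), Myh6 (0.50 ± 0.14 SE, edgeR BH-adjusted p = 0.0161) and Actn2 (0.42 ± 0.10 SE, edgeR BH-adjusted p = 0.00695), with a median of 0.11. The summed cardiomyocyte markers were at 36805 to 38310 CPM in WT VEH and 36080 to 37659 CPM in CD JZL184, against 25890 to 34377 CPM in WT JZL184 and 30202 to 33486 CPM in CD VEH. The part of these cell types in the differences of the 10 factors was not tested.

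**Figure D4:**
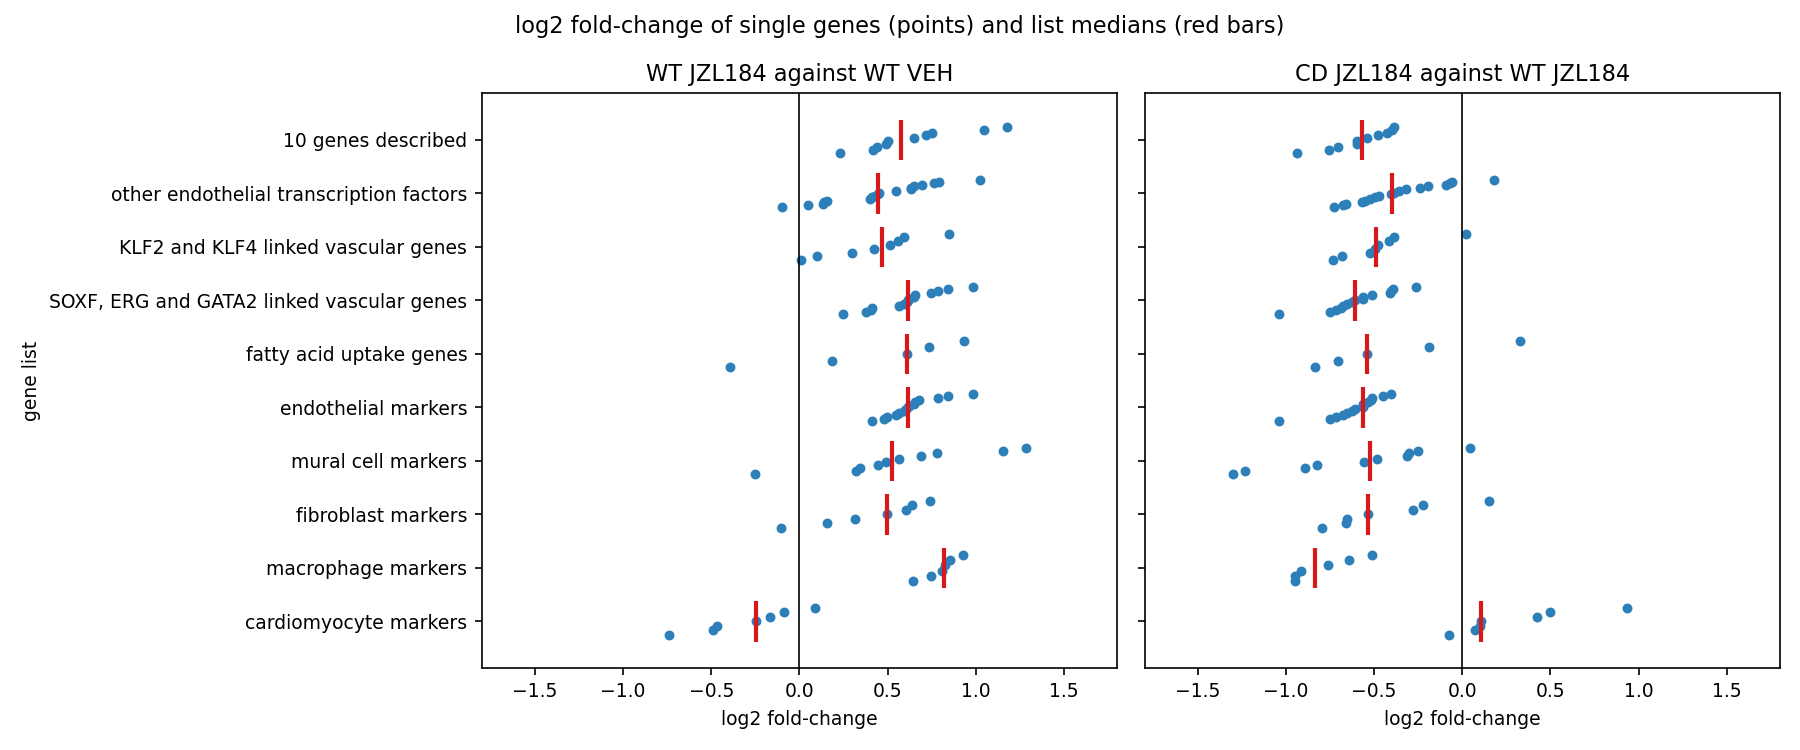
log2 fold-change (x axis) of the tested genes (points) of each list (y axis), with the list median (red bar), in WT JZL184 against WT VEH (left) and CD JZL184 against WT JZL184 (right), which share the WT JZL184 mice. The medians of the 10 genes and of the endothelial markers are 0.57 and 0.61 on the left and -0.57 and -0.56 on the right, and the cardiomyocyte markers lie on the other side, at -0.25 and 0.11.

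The share of counts from mitochondrial genes was also higher in WT JZL184 and CD VEH than in the other groups, at 39.4 to 41.2% in WT VEH, 45.0 to 46.6% in WT JZL184, 43.5 to 44.7% in CD VEH and 36.4 to 40.1% in CD JZL184, without overlap. With the mitochondrial genes left out before scaling, all 10 factors were still called lower in CD JZL184 than in WT JZL184, as were 2367 of the 12075 genes then tested, and Meox2 stayed at -0.59 (SE 0.08).

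Other markers were less uniform within or between the groups. The summed erythroid markers were 18785 CPM in 1 CD VEH mouse and 2027 and 2878 CPM in the other two, and 0 of 5 erythroid markers were called between CD JZL184 and WT JZL184 in edgeR (0 at an unadjusted p under 0.05 and 0 in DESeq2, median -1.17), although each of the 5 was lower in CD JZL184 without overlap, with log2 fold-changes of -1.18 to -0.98. The summed endocardial and lymphatic markers had 117.5 to 195.7 CPM in WT JZL184 and 118.0 to 143.5 CPM in CD JZL184, so these groups overlapped, and 2 of 7 were called lower and 1 higher. Immediate early genes, which handling of tissue can raise, were called in 0 of 6 cases in edgeR (1 at an unadjusted p under 0.05 and 1 in DESeq2, median -0.21), where 38.3% of all tested genes were called in either direction. Of the 5 epicardial and adipocyte markers 1 passed the filter, and it was called lower (-0.67), and their summed level was 2.39 to 4.98 CPM over all mice.

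The genes most like Meox2 in pattern were taken over all 11 mice, by the smallest root mean square (RMS) difference of log2 CPM after subtracting each gene's mean. They were Inka1 (RMS 0.108), C1qtnf2 (0.130), Thy1 (0.132), Ifit1 (0.146) and Cd200 (0.148), against a median of 0.438 over 11318 genes. Inka1, which encodes an inhibitor of p21-activated kinase, had 2.34 and 2.70 CPM in WT VEH, 4.77, 5.47 and 4.99 CPM in WT JZL184, 5.11, 3.73 and 5.42 CPM in CD VEH, and 3.36, 3.36 and 3.22 CPM in CD JZL184. Like Meox2, it had no overlap of WT VEH or CD JZL184 with any other group. Of the other 9 factors, Sox7 (RMS 0.187), Erg (0.195) and Tcf15 (0.198) were the closest, in places 45, 73 and 87, and Meox1 (0.374) was the farthest, in place 3203. This is a description that uses the values by which Meox2 was chosen.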

How the data were processed

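The authors sequenced RNA from 11 hearts and deposited a table of estimated counts that are not normalized, with a row for each gene. Salmon 0.7.2 quantified transcripts of GRCm38 (Ensembl release 85, mm10 in the labels), and tximport 1.2.0 summed them to genes. Groups were taken from the sample labels and column names. The labels call the vehicle mice untreated in the treatment field and veh in their titles. The columns carry letters that are in no label. Whether mice of a group differed in litter or day is not given in the sources used here, and p-values measure the spread between these mice.

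Here the estimated counts were rounded and fitted by the quasi-likelihood method of edgeR 4.0.16 (R 4.3.3, limma 3.58.1), with TMM factors and all 4 groups in 1 model. The 11319 genes tested averaged 1 log2 CPM or more. The test was two-sided, with Benjamini–Hochberg adjustment over all of them and a threshold of 0.05. The common biological coefficient of variation was 9.13%. Log2 CPM had a prior count of 2. Relative values were tested by exact permutation. Gene positions and exon lengths came from GENCODE mouse release 21, which matched 22238 of 22608 identifiers. A count of 3 corresponds to 0.0305 to 0.0433 CPM, which covers counting error only.

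The 10 genes, the gene lists and the comparisons were chosen with earlier results of these data known. The genes named are the 10 factors, up to 4 called genes of a list with the largest absolute log2 fold-change in CD JZL184 against WT JZL184, and the 5 genes most like Meox2. For the other cell type markers only some of these are named, and Cd36, Foxo1 and Nfatc1, which did not pass, were added once their values were known. Values of 1 listed gene are not reported here. Alternatives included DESeq2 1.42.0, scaling by RLE, by the upper quartile or not at all, other filters (no filter, or at least 10 counts in every mouse), leaving out mitochondrial genes, only the 2 compared groups, and dropping single mice. The letter of the columns as a block was added after the values were seen.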

Additional observations from a re-analysis of the deposited data

Results flagged for a closer look

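The change under JZL184 went opposite ways in the genotypes for 8 of the 10 genes: every WT JZL184 mouse lay above both WT VEH mice, and every CD JZL184 mouse lay below every CD VEH mouse. The CD effect minus the WT effect (log2) was -1.89 for Tcf15, -1.65 for Meox2, -1.12 for Sox7, -1.07 for Erg, -0.98 for Klf2, -0.98 for Gata2, -0.94 for Sox17 and -0.86 for Klf4. The difference was not tested, since it contains the comparison that chose Meox2. Opposite changes without overlap in these 2 comparisons, in either order, were found for 4275 tested genes (37.8%). That share also counts genes that went the other way from the 8. Meox1 (-0.98) and Sox18 (-1.28) had overlapping groups in CD mice and were not among the 8.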

How the results depend on the processing

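The fall of Meox2 from WT JZL184 to CD JZL184 kept its direction and its call in all 15 alternatives (log2 fold-change -0.63 to -0.46). In 14 of these, between 8 and 10 of the 10 genes were called lower, and the calls of Meox1, Klf2 and Gata2 lost there are given with those genes. The remaining one, added after the values were seen, took the letter of the columns as a replicate block. It called 4 of the 10 genes (Meox2, Tcf15, Sox7 and Sox17) and 1186 genes in all, against 4331, with all 10 still negative and Meox2 at -0.56 (edgeR BH-adjusted p = 0.0278). At their weakest over the 15 alternatives, Klf2 was at -0.14 and Gata2 at -0.20, with edgeR BH-adjusted p up to 0.351 and 0.182. The letters are in no label, and CD JZL184 and WT JZL184 share only the letter A. Deviations from the group means correlated across genes at -0.25 to 0.32 for mice with the same letter. For mice with different letters they correlated at -0.34 to 0.31. The highest value, 0.32, was that of WT JZL184 A and CD JZL184 A. The letters were not taken as pairs because no label explains them, and these correlations cannot decide whether they mark a block. Meox2 minus the other 9 factors lay between -0.20 and -0.01. Meox2 minus the endothelial markers, 0.02, was -0.0268 against their summed CPM (exact permutation p = 0.9) and -0.0613 to 0.0738 when 1 mouse was left out, so it has no direction. Among values without a test, the block moved Sox17, Klf2 and Klf4 in WT JZL184 against WT VEH to 0.28, 0.19 and 0.06. Sox17 in WT JZL184 against WT VEH went from 0.50 to 0.35 without WT JZL184 B. Meox2 in CD JZL184 against CD VEH went to -0.50 without a scaling factor, Klf4 in CD JZL184 against WT VEH to -0.07 without WT VEH D, and Tcf15 in that comparison to 0.01 without WT VEH C and 0.53 without WT VEH D. The cause was not tested. For Meox2 minus the other factors, the alternative of adding factors under the filter gave no value of its own, since all 10 genes passed, and the fit with no filter on low counts is among the 15.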
